A study of Mus musculus with 27 samples.

Results

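The CCN genes encode a small family of matricellular proteins, that is, proteins secreted into the extracellular matrix that signal to cells without building the matrix itself. Members were chosen by symbol, and all 5 listed genes (Ccn1, Ccn2, Ccn3, Ccn4 and Ccn5) were found among the 40129 genes of the table. The libraries come from whole retinas of wildtype (WT) mouse pups, labelled C57BL/6 and given as C57BL/6J in the methods of the study, and each mouse contributed the retina of a single eye or of both eyes pooled. In the oxygen-induced retinopathy (OIR) model, pups breathed a high oxygen level during their second postnatal week, which removes central retinal vessels, and were then returned to room air, where the retina becomes hypoxic. OIR mice were killed at postnatal day 14 (p14), when large avascular areas are present, or at p17, when retinal neovascularization peaks, and untreated pups kept in room air (nOIR) of the same ages served as controls. At p14 the groups hold 6 OIR and 6 nOIR mice and at p17 they hold 8 OIR and 6 nOIR mice, with a further nOIR p14 mouse (S4) left out because the study excluded it for lens contamination. OIR pups outside a set weight range had been excluded by the study. Each group came from a few litters and the litter and sex of each mouse were not used here, so the tests take mice as independent and measure the spread between these mice only.

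CCN proteins share a modular, cysteine-rich build and act by binding integrins, heparan sulfate proteoglycans and other surface receptors. Ccn1 (also called Cyr61) and Ccn2 (Ctgf, connective tissue growth factor) are textbook targets of the Hippo pathway: when its kinases are inactive, the coactivators YAP and TAZ enter the nucleus and act with TEAD factors. Both proteins are known for roles in vessel growth, wound repair and fibrosis. Ccn3 (Nov) often opposes Ccn2, Ccn4 (Wisp1) was found as a gene induced by WNT signaling, and Ccn5 (Wisp2) lacks the C-terminal domain that the others carry.

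The sequence upstream of Ccn1 is shown because it holds the letters that TEAD factors recognize. A RefSeq promoter was found for 1 of the 5 members. It covers the 250 bases before the start site of Ccn1 at chr3:145649986-145650235 on the minus strand of GRCm38.p6, printed 5′ to 3′ in the direction of the gene, with the match to GGAATG on the opposite strand in capitals.
Ccn1: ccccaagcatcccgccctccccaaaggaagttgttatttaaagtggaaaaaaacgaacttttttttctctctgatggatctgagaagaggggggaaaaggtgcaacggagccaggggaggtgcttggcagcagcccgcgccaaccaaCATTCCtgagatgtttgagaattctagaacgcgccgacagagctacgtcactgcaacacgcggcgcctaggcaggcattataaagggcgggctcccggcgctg
The capitals cover bases 148 to 153 of the window, and their first base lies 103 bases before the start site. On either strand, GGAATG occurs in 12.6% of 32841 promoter windows of this length. It was found for 7 of the 16 other YAP and TAZ target genes listed further on that have a window in the table. The letters of an AP-1 site (TGANTCA, in 6.75% of windows), a cAMP response element (TGACGTCA, 1.55%), the core of a hypoxia response element (ACGTG, 16.6%) and the CArG box of serum response factor (1.47%) were not in the Ccn1 window. A match of letters is a description and not evidence of binding.

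Libraries held from 17029536 to 33593428 recovered reads, and from 25529 to 27719 genes were above 0 in a mouse. All values given as normalized reads are counts divided by a size factor for each mouse. Gnat1, which encodes rod transducin, averaged 366653 normalized reads in nOIR p14, 256974 in OIR p14, 461598 in nOIR p17 and 400936 in OIR p17, so this photoreceptor marker was abundant in every group. In bulk retina, more cells of a type and more RNA per cell cannot be told apart.

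Set against exon length, Ccn1, Ccn2 and Ccn4 carried nearly all of the total over the 5 genes, which leaves out Ccn6 (29.9 to 37.7 normalized reads per kilobase in the group means). In nOIR p17 mice, Ccn4 stood highest at 388 ± 37.8 normalized reads per kilobase of exon (SD, n = 6), followed by Ccn2 at 161 ± 27.8 and Ccn1 at 71.7 ± 21.2. In OIR p17 mice, Ccn2 led with 553 ± 110.2 per kilobase (SD, n = 8), while Ccn1 had 381 ± 127.1 and Ccn4 had 345 ± 62.7. This order depends on the exon lengths used. Without division by length, Ccn4 had the highest mean in every group, in OIR p17 mice 1918 normalized reads beside 1582 for Ccn2. Ccn2 was above Ccn4 per kilobase in 8 of 8 OIR p17 and 5 of 6 OIR p14 mice, and in none of the 6 nOIR p17 or 6 nOIR p14 mice. Ccn1 was above Ccn4 in 3 of 8 OIR p17 and 4 of 6 OIR p14 mice, so those neighbours in the order overlapped. Ccn2 was above Ccn1 in 7 of 8 OIR p17 and 5 of 6 OIR p14 mice, so its lead did not hold in every mouse. Ccn3 and Ccn5 stayed at or below 2.89 normalized reads per kilobase in every group mean. Of the sum over the 5 genes per kilobase, Ccn4 made up 62.5% ± 5.81 in nOIR p17 mice and 27.1% ± 3.27 in OIR p17 mice, whereas the share of Ccn1 was 11.5% ± 2.99 and 29.2% ± 4.96. The sum itself averaged 525 ± 27.9 normalized reads per kilobase in nOIR p14 and 692 ± 104.7 in OIR p14 mice. At p17 it averaged 621 ± 34.1 in nOIR and 1284 ± 255 in OIR mice.

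**Figure D1:**
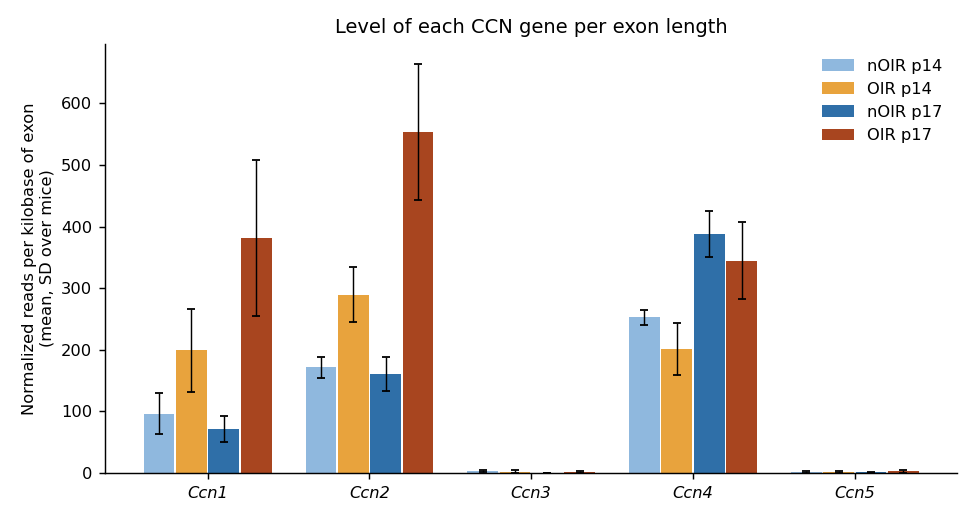
Mean level of each CCN gene in normalized reads per kilobase of exon (vertical axis, linear from 0) in 8 OIR p17 mice and in 6 mice of each other group, with the SD over mice as error bars. Ccn4 is the highest bar in both control groups and Ccn2 in both OIR groups, while Ccn3 and Ccn5 lie near 0.

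Ccn1 rose in OIR retinas at both ages. In nOIR p14 mice its lowest, median and highest values were 117, 198 and 277 normalized reads, and in OIR p14 mice 283, 364 and 668. Every OIR p14 mouse thus lay above every control of its age, although the lowest OIR value was close to the highest control. At p17, the lowest, median and highest values were 83.8, 139 and 199.5 in nOIR mice and 484, 729 and 1224 in OIR mice, and the gap between the groups was wide. In limma, whose p-values were adjusted after Benjamini and Hochberg over 27137 genes, the rise at p14 was 1.06 in log2 units (standard error 0.25, adjusted p = 0.00683). The rise at p17 came to 2.39 (standard error 0.23, adjusted p = 6.79e-09). These correspond to a 2.09-fold and a 5.25-fold rise. At p17 Ccn1 ranked 349 of 27137 genes by log2 fold change and passed the threshold of the study for a differentially expressed gene (DEG, a log2 fold change beyond 2 in size at an adjusted p under 0.05), which 1.9% of the genes tested passed in this direction. Among OIR p14 mice, S2 stood apart with 668 normalized reads, and leaving it out gave a log2 fold change of 0.91 (adjusted p = 0.023). This mouse had the lowest endothelial and the lowest fibroblast marker sum of its group. In controls, Ccn1 did not pass between p14 and p17, with a log2 fold change of -0.40 (95% confidence interval -0.91 to 0.11). In OIR mice it rose by 0.93 from p14 to p17 (adjusted p = 0.0126), with 4 of 8 OIR p17 mice above the highest OIR p14 mouse. The order of the levels was therefore nOIR p17, nOIR p14, OIR p14 and OIR p17, and only the first pair of neighbours was not separated by the test.

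Ccn2 also rose in OIR retinas at both ages, with the same order of the groups. The lowest, median and highest values were 432, 491 and 543 normalized reads in nOIR p14 mice and 709, 784 and 1042 in OIR p14 mice. At p17, they were 366, 449 and 599 in nOIR mice against 1189, 1588 and 2015 in OIR mice. Neither age showed any overlap between OIR and control mice. By limma, Ccn2 rose 1.68-fold at p14 (log2 fold change 0.75, standard error 0.13, adjusted p = 4.73e-04) and 3.42-fold at p17 (log2 fold change 1.77, standard error 0.13, adjusted p = 1.49e-11). By p-value, Ccn2 ranked 37 of 27137 genes at p17, ahead of Ccn1 at rank 161, while its log2 fold change lay below the DEG threshold of 2. Its coefficient of variation ran from 10.1% to 19.9% over the 4 groups, compared with 29.6% to 34.1% for Ccn1. In controls, Ccn2 did not pass between the ages, with a log2 fold change of -0.10 (95% confidence interval -0.38 to 0.17), and rose by 0.92 between OIR p14 and OIR p17 mice (adjusted p = 1.24e-05), again with no overlap. A gene on the opposite strand, Gm15270, overlaps Ccn2 in GENCODE M21, and the library kit does not mark strand. Gm15270 ranged from 7.44 to 38.9 normalized reads over all mice and its log2 fold change in OIR was -0.17 at p14 (adjusted p = 0.892) and 0.16 at p17 (adjusted p = 0.837).

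Ccn4 passed the test between the ages, in controls and in OIR mice, and did not pass between OIR and controls. Its lowest, median and highest values were 1345, 1384 and 1517 normalized reads in nOIR p14 mice and 1777, 2202 and 2344 in nOIR p17 mice, without overlap. By limma this was a rise of 0.61 in log2 units (standard error 0.12, adjusted p = 0.015), which made Ccn4 1 of 86 genes, or 0.317% of those tested, that passed between the ages in controls. The call rested on single mice, since the adjusted p was 0.0543 without nOIR p14 mouse S3 and 0.0526 without nOIR p17 mouse S4. Between OIR p14 mice (870.2, 1046 and 1515) and OIR p17 mice (1580, 1758 and 2410), Ccn4 rose by 0.78 (standard error 0.11, adjusted p = 3.48e-05), also without overlap. Compared with controls of the same age, OIR mice had a log2 fold change of -0.35 at p14 (95% confidence interval -0.60 to -0.11, adjusted p = 0.0881). At p17 it was -0.18 (95% confidence interval -0.42 to 0.05, adjusted p = 0.357). At p14, 5 of 6 OIR mice lay below the lowest control, and OIR p14 mouse S2 was the exception with 1515 normalized reads. Without this mouse the log2 fold change was -0.45 and the adjusted p 0.0168, and with nOIR p14 mouse S4 included they were -0.38 and 0.0443. The order of the levels was OIR p14, nOIR p14, OIR p17 and nOIR p17. The first and the last pair of neighbours were not separated by the test, while the lowest OIR p17 mouse lay above the highest nOIR p14 mouse.

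Ccn3 was scarce throughout and was not detected in p17 controls. Its recovered reads were 2 to 13 per mouse in nOIR p14 mice, 0 to 16 in OIR p14 mice, 0 in each of the 6 nOIR p17 mice and 1 to 15 in OIR p17 mice. In normalized reads, the lowest, median and highest values were 1.78, 9.79 and 11.9 in nOIR p14, 0, 5.54 and 14.2 in OIR p14, and 0.826, 5.41 and 14.4 in OIR p17 mice. All 8 OIR p17 mice thus had at least a read of Ccn3 and none of their controls did. OIR p17 mice S1, S5 and S6 each had a single read, so only 1 read separated the groups. Counting error alone allows 3 reads over the 6 nOIR p17 libraries, a mean of 0.503 normalized reads, so that Ccn3 was at least 11.3-fold higher in OIR p17 mice and at least 16.4-fold higher in nOIR p14 mice than in nOIR p17 mice. These bounds take the mean of the other group as it stands. They cover counting error in nOIR p17 only, since reads amplified by PCR are not independent molecules. By limma, both differences passed (adjusted p = 0.00408 for OIR p17 against nOIR p17 and 0.0155 for nOIR p17 against nOIR p14). With 1 added to each value, the first log2 fold change was 2.36 (95% confidence interval 1.20 to 3.53). The second was -3.05 (95% confidence interval -4.29 to -1.80). Without nOIR p14 mouse S3, the second had an adjusted p of 0.0599. At p14, OIR mice and controls overlapped (adjusted p = 0.553), and OIR p17 did not differ from OIR p14 by the test (95% confidence interval of the log2 fold change -1.02 to 1.31).

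Ccn5 gave few reads and no call. It had 0 to 7 recovered reads per mouse in nOIR p14, 0 to 8 in OIR p14, 0 to 5 in nOIR p17 and 0 to 13 in OIR p17 mice. The gene was at 0 in 1, 4, 3 and 3 mice of these groups in the same order. Its log2 fold change at p17 was 0.73 with a 95% confidence interval of -0.74 to 2.19, and at p14 it was -0.95 (-2.52 to 0.62). A sizeable rise at p17 or fall at p14 was thus not excluded at this depth. The highest OIR p14 value, 8.59 normalized reads, belonged to mouse S2, which was also the highest of its group for Ccn1 and Ccn4. Ccn6, the remaining family member, is outside the 5 genes. It had 24.0 to 82.6 normalized reads in these mice, and its log2 fold change in OIR was 0.10 at p14 (adjusted p = 0.917) and 0.28 at p17 (adjusted p = 0.587).

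**Figure D2:**
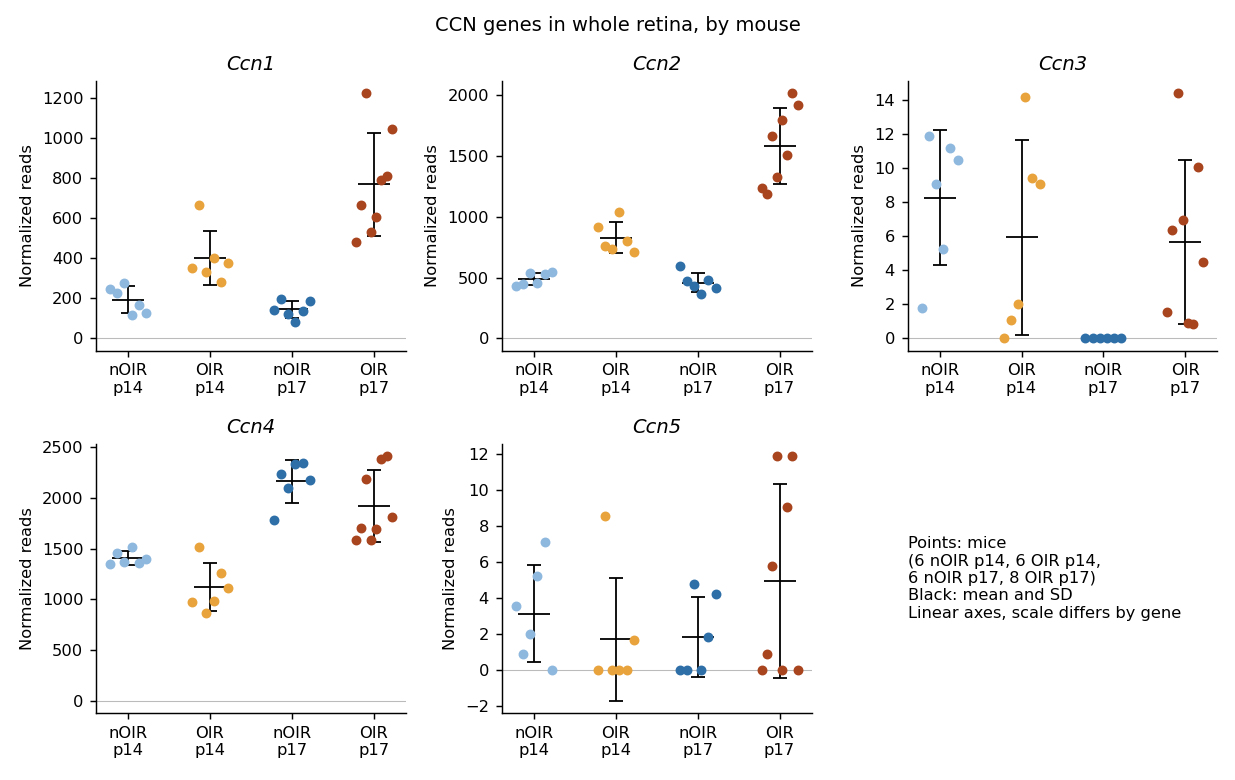
Normalized reads (vertical axes, linear, scaled for each gene) of the 5 CCN genes in each mouse by group, with the mean and SD in black for 8 OIR p17 mice and 6 mice in each other group. All OIR mice lie above the controls of their age for Ccn1 and Ccn2, Ccn4 is higher at p17 than at p14 in both arms, and Ccn3 is at 0 in the 6 nOIR p17 mice.

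Counted over the family by limma, 2 of the 5 members (Ccn1 and Ccn2) rose in OIR mice at p14, where 6.09% of all genes tested passed in either direction and 3.18% in this one. At p17, 3 of the 5 were higher in OIR mice than in controls (Ccn1, Ccn2 and Ccn3), where 12.5% of all genes passed and 7.39% rose. Of these, Ccn1 and Ccn3 passed the DEG threshold. The mean of Ccn3 was 5.96 normalized reads in OIR p14 and 5.69 in OIR p17 mice. In controls it was 8.28 at p14 and 0 at p17. No member fell at either age. The median log2 fold change of the 5 members was -0.35 at p14 and 1.77 at p17, beside 0.02 and -0.02 over all genes tested. OIR and control mice did not overlap in Ccn1 and Ccn2 at p14 (3.77% of all genes) and in Ccn1, Ccn2 and Ccn3 at p17 (5.87%), with an exact permutation test (two-sided) giving p = 0.00216 and 6.66e-04 for each, the smallest that these group sizes allow. For Ccn3 at p17 this lack of overlap was 0 reads in every control against 1 read in the lowest OIR mice. Between the ages, Ccn4 rose and Ccn3 fell in controls, and their groups did not overlap (1.49% of all genes). Ccn3 was a downregulated DEG in this comparison, as were 0.0111% of the genes tested. From OIR p14 to OIR p17, Ccn1, Ccn2 and Ccn4 rose, beside 5.91% of all genes called in either direction, and Ccn2 and Ccn4 did not overlap, as did 1.8% of all genes.

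**Figure D3:**
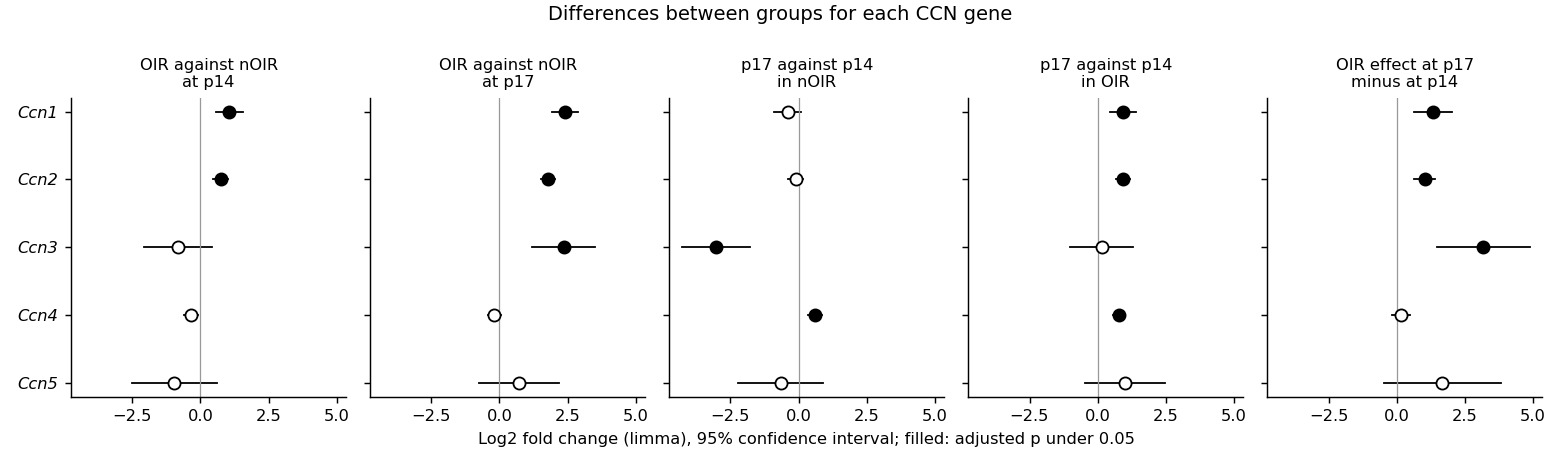
Log2 fold change of each CCN gene (points) with its 95% confidence interval (lines) in the 5 comparisons, from limma on log2 normalized reads. Filled points have an adjusted p under 0.05: Ccn1 and Ccn2 lie above 0 at p14 and p17, Ccn4 only between the ages, and the intervals of Ccn3 and Ccn5 are the widest.

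Whether the members differed from each other was tested on the log2 difference of 2 genes within each mouse, for 3 pairs at both ages. The difference between Ccn2 and Ccn4 moved by 1.10 at p14 (standard error 0.18, exact permutation test, two-sided, adjusted p = 0.00325 over 6 tests) and by 1.96 at p17 (standard error 0.17, exact permutation, adjusted p = 0.002) in favour of Ccn2 in OIR mice. The pair of Ccn1 and Ccn4 moved by 1.42 and 2.58 (exact permutation, adjusted p = 0.00325 and 0.002). OIR and control mice did not overlap in either of these pairs at either age. Ccn1 gained on Ccn2 by 0.62 at p17 (standard error 0.21, exact permutation, adjusted p = 0.0184). At p14 the gain was 0.32 with a standard error of 0.30 (exact permutation, adjusted p = 0.316), so that the rise of Ccn1 and Ccn2 was not told apart there.

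The OIR effect was larger at p17 than at p14 for 3 of the 5 members by limma's test of the difference itself, which 1.58% of all genes passed. In log2 units, Ccn2 gained 1.03 (standard error 0.18, adjusted p = 0.00129), Ccn1 gained 1.33 (standard error 0.34, adjusted p = 0.0384) and Ccn3 gained 3.19 (standard error 0.83, adjusted p = 0.0443). For Ccn2, the call held when any of the 26 mice was left out. For Ccn1 it was lost in 15 of 26 such omissions, namely of OIR p14 S1, S3, S5 and S6, OIR p17 S3, S6, S7 and S8, nOIR p14 S1, S2 and S3, and nOIR p17 S1, S3, S4 and S5, where the log2 difference ranged from 1.18 to 1.33 and the adjusted p reached 0.0845. For Ccn3 it was lost in 19 of 26, with adjusted p of up to 0.0873. The size of the Ccn3 difference, with a group at 0 reads, ran from 2.98 to 6.72 over the processing alternatives, the highest with a pseudocount of 0.1. Among the omissions of 1 mouse, the Ccn3 call was kept only without OIR p14 S4, S5 or S6, OIR p17 S1, S5 or S6, or nOIR p14 S1. Ccn4 had a difference of 0.17 (95% confidence interval -0.17 to 0.51).

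Genes with the most similar pattern were ranked by Pearson correlation of log2 values over 26 mice, among the 19003 other genes averaging 10 or more normalized reads, as a description. For Ccn1, these were Fam167b (r = 0.94), Pdlim3 (0.94), Apln (0.92), Serpinh1 (0.92) and Adm (0.92). Apln encodes a vascular peptide of growing endothelium, Adm encodes adrenomedullin, which is induced by hypoxia, and Serpinh1 is a collagen chaperone. For Ccn2 they were Fam110a (0.96), Plod1 (0.96), Angpt2 (0.95), Arpc1b (0.95) and Rhoj (0.95). Plod1 is a collagen lysyl hydroxylase, Angpt2 an endothelial ligand of the Tie2 receptor and Rhoj an endothelial GTPase. Ccn1 and Ccn2 correlated with r = 0.90, and Ccn2 ranked 22 among the genes most like Ccn1. The list for Ccn4 held other genes, Mef2c (0.88), Vtn (0.87), Gm10097 (0.87), Lrit2 (0.86) and A930023M06Rik (0.86). With Ccn1, Ccn4 had an r of 0.0025.

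After subtraction of the group means, Ccn1 and Ccn2 correlated with r = 0.30, and Ccn2 ranked 2072 among the genes most like Ccn1. Ccn4 then correlated with Ccn1 with r = 0.35 at rank 1290, and with Ccn2 with r = 0.046. The top genes were then Xpnpep1 (0.72), Trib1 (0.70), Dtx2 (0.66), Spindoc (0.66) and Pars2 (0.64) for Ccn1, and Pir (0.72), Pik3ip1 (0.70), Cln6 (0.70), Ttc12 (0.69) and Phospho2 (0.69) for Ccn2. For Ccn4 they were H1f2 (0.87), H1f4 (0.82), Ctif (0.74), Shisa4 (0.72) and H1f0 (0.72), of which 3 encode linker histones. All points share library and depth, and no test was run.

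Other genes of the Hippo pathway were described from lists. Among 18 pathway components, 2 rose by limma at p14 and 5 at p17, and none fell, beside rises in 3.18% and 7.39% of all genes tested. With quantile normalization or edgeR, 4 rose at p17. Wwtr1, which encodes TAZ, rose by 0.76 at p14 (standard error 0.10, adjusted p = 9.34e-06) and 1.32 at p17 (standard error 0.10, adjusted p = 2.48e-11), with no overlap at either age. The values of Yap1 were 0.07 and 0.15 (adjusted p = 0.95 and 0.797). Of the TEAD genes, Tead2 rose by 1.02 at p17 (adjusted p = 3.52e-05), Tead3 by 0.83 at p14 (adjusted p = 0.0161) and 0.76 at p17 (adjusted p = 0.00949), and Tead4 by 1.66 at p17 (adjusted p = 0.0291). Over the 18 components the median was 0.08 at p14 and 0.14 at p17, close to that over all genes.

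Among 22 other YAP and TAZ target genes, 4 rose at p14, while 9 rose and 2 fell at p17 (1 with equal totals). Of all genes tested, 6.09% passed in either direction at p14 and 12.5% at p17. Their log2 fold changes had a median of 0.11 at p14 and 0.36 at p17, compared with 1.06 and 2.39 for Ccn1. Anxa3 rose by 1.56 at p17 (adjusted p = 2.29e-09), Myof, a membrane repair protein, by 1.27 (adjusted p = 4.10e-06), Anxa1 by 1.22 (adjusted p = 4.41e-07) and Foxf2, a transcription factor of pericytes, by 1.19 (adjusted p = 0.00887). Ankrd1 and Amotl2, both common reporters of the pathway, did not pass at p17, with values of 0.68 (adjusted p = 0.530) and 0.34 (adjusted p = 0.152). Ankrd1 was nearly absent, with a mean of 2.19 normalized reads in OIR p17 mice. Nt5e and Nuak2 fell by 0.28 and 0.40 at p17 (adjusted p = 0.00402 and 0.0241). No gene of this list reached the log2 fold change of Ccn1 or Ccn2 at p17. This did not hold at p14, where Myof rose by 1.09 (limma, adjusted p = 3.70e-04), beside 1.06 for Ccn1 and 0.75 for Ccn2.

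**Figure D4:**
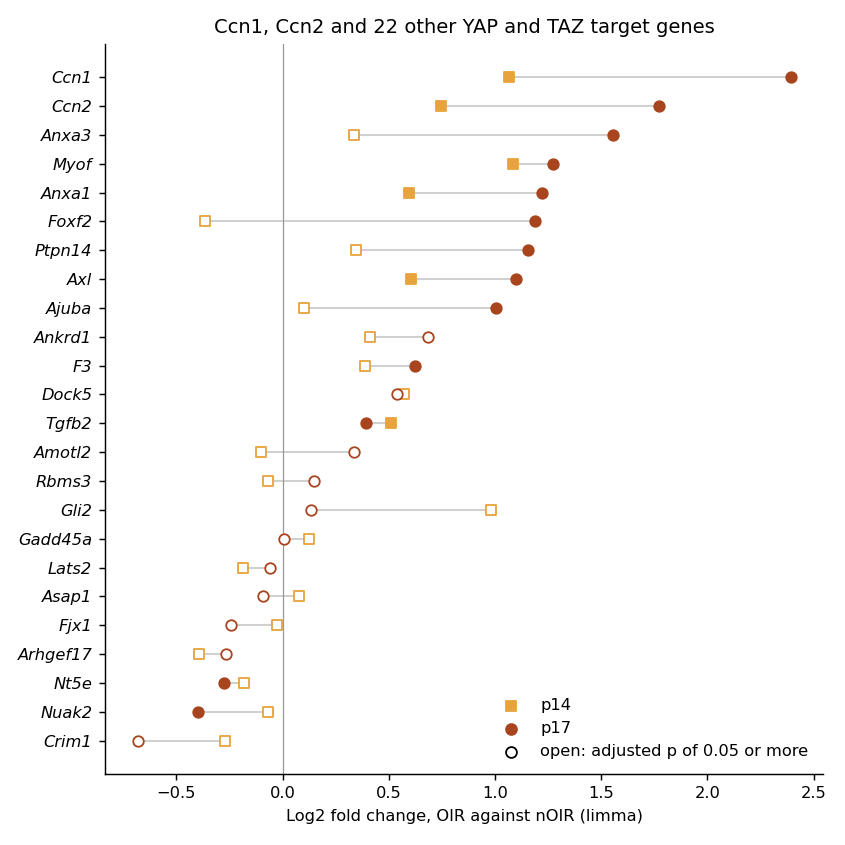
Log2 fold change (horizontal axis) of OIR against nOIR mice at p14 (squares) and p17 (circles) for Ccn1, Ccn2 and 22 other YAP and TAZ target genes, from limma. Filled symbols have an adjusted p under 0.05; Ccn1 and Ccn2 are filled at both ages and lie farthest right at p17, while Ankrd1 and Amotl2 are open.

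Of the receptors and binding partners of CCN proteins, 8 of 16 rose at p14 and 9 of 16 at p17, with none falling, beside rises in 3.18% and 7.39% of all genes tested. Their median log2 fold changes were 0.59 and 0.75. Itgb3, whose product pairs with the alpha-v integrin as a receptor of CCN1 and CCN2, rose by 2.15 at p14 (standard error 0.59, adjusted p = 0.0235) and 2.14 at p17 (standard error 0.55, adjusted p = 0.00726). Hspg2, which encodes the heparan sulfate proteoglycan perlecan, rose by 1.05 and 2.41 (adjusted p = 0.0076 and 5.91e-09), and Fn1, which encodes fibronectin, by 1.12 and 2.00 (adjusted p = 0.00208 and 4.60e-08). Itgb2, the beta chain of leukocyte integrins, rose by 1.44 and 2.15 (adjusted p = 0.0231 and 7.80e-05).

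Genes of pathways that induce CCN genes were counted in the same way. Of 18 TGF-beta ligands, receptors and effectors, 2 rose and 1 fell at p14, and 7 rose at p17. At p14, 3 rose with equal totals or quantile normalization and 4 with DESeq2. These and the following counts stand beside 6.09% of all genes called at p14 and 12.5% at p17, with rises in 3.18% and 7.39%. The ligand Tgfb1 rose by 1.95 at p17 (adjusted p = 1.73e-07), as did the endothelial coreceptor Eng by 1.95 (adjusted p = 1.56e-10) and the receptor Acvrl1 by 1.25 (adjusted p = 1.59e-07). Immediate early genes, a class to which Ccn1 also belongs, rose in 10 of 20 cases at p14 and in 15 of 20 at p17. Egr2 rose by 5.74 and 4.34 (adjusted p = 1.25e-07 and 7.83e-07), Fosb by 2.15 and 3.40 (adjusted p = 0.0261 and 4.47e-05), Egr3 by 1.88 and 2.65 (adjusted p = 0.0313 and 2.97e-04) and Junb by 1.15 and 2.43 (adjusted p = 0.00133 and 8.94e-10). The part of such a response in the values of Ccn1 was not tested.

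Among 13 genes of the SRF and MRTF pathway, which responds to the actin cytoskeleton, 5 rose at p14 (3 with quantile normalization) and 10 at p17. Actg2 rose by 4.03 and 5.29 (adjusted p = 7.01e-05 and 7.15e-08), Acta2 by 2.00 and 3.68 (adjusted p = 7.93e-07 and 4.29e-13), Tpm2 by 0.96 and 2.46 (adjusted p = 0.0365 and 4.05e-08) and Tagln by 1.23 and 2.19 (adjusted p = 0.0469 and 3.11e-05). These are contractile genes of smooth muscle and pericytes. Acta2 and Tagln, and Cnn1 of the same list, are counted again among the markers of those cells. The WNT and beta-catenin targets, the class of genes to which Ccn4 was first assigned, held no call at p14 by limma, edgeR or DESeq2 (0 of 11 genes, with 2 at an unadjusted p under 0.05 in limma) and 2 at p17, Dkk2 with 2.02 (adjusted p = 8.56e-04) and Lef1 with 0.76 (adjusted p = 0.02), and 1 at p17 with quantile normalization. Other secreted matricellular genes counted 1 rise and 2 falls among 10 genes at p14 (2 rises with equal totals, edgeR or DESeq2) and 4 rises at p17. Those at p17 were Postn, by 2.31 (adjusted p = 6.72e-10), the thrombospondins Thbs2 and Thbs1, by 1.88 and 1.69 (adjusted p = 7.48e-05 and 6.33e-06), and Sparc, by 0.92 (adjusted p = 2.76e-07).

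Markers of vascular cells rose together with Ccn1 and Ccn2 at p17. Of 10 endothelial markers, 2 rose and 1 fell at p14 (2 fell with quantile normalization) with a median log2 fold change of -0.11, and 8 rose at p17 with a median of 1.35. Erg, an endothelial transcription factor, rose by 2.35 at p17 (adjusted p = 1.61e-07) and Emcn by 1.95 (adjusted p = 2.58e-09). The summed level ranged at p14 from 9999.7 to 13258 normalized reads in nOIR and from 8874 to 13959.5 in OIR mice, and at p17 from 8489.6 to 10304 in nOIR and from 12353 to 16128 in OIR mice. Pericyte and smooth muscle markers rose in 4 and fell in 3 of 12 cases at p14 and rose in 12 of 12 at p17, with sums of 3202 to 6055 against 4392 to 4935 normalized reads at p14 and 12288 to 18557 against 3420.3 to 4289.7 at p17. The rises at p14 were in Acta2, Mcam, Tagln and Des. The falls were in Rgs5, Kcnj8 and Abcc9, with log2 fold changes of -1.10, -1.72 and -1.47 (limma, adjusted p = 1.75e-05, 4.37e-07 and 4.19e-06). Des rose by 3.43 at p17 (adjusted p = 6.82e-12) and Cspg4 by 2.29 (adjusted p = 7.01e-08). Fibroblast markers rose in 2 of 10 cases at p14 and 4 of 10 at p17. They summed to 1236 to 3065 normalized reads in OIR p14 mice, 4 of 6 of which lay above every nOIR p14 mouse (1159 to 1601), and to 2264 to 5397 in OIR p17 and 822 to 1289 in nOIR p17 mice. Among them, Col1a1, a fibrillar collagen chain, rose by 2.63 at p14 (adjusted p = 4.73e-04) and 4.25 at p17 (adjusted p = 2.33e-08). The collagen genes Col1a2 and Col3a1 of this list did not pass by limma at p14, with 0.13 and 0.07 (adjusted p = 0.910 and 0.946). The other rise at p14 was Pdgfra, by 0.70 (adjusted p = 0.0114), which the astrocyte list also holds. None of these markers was at 0 in all mice. Their part in the CCN values was not tested.

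Markers of glia, neurons and other tissues gave the following counts. Müller glia markers rose in 2 and fell in 4 of 8 cases at either age, astrocyte markers rose in 3 of 5 at p14 and 4 of 5 at p17, and microglia and macrophage markers rose in 2 of 8 and 5 of 8. Retinal ganglion cell markers fell in 3 of 8 cases at p14 and 5 of 8 at p17, and photoreceptor markers in 3 and 2 of 8. With every mouse rescaled to the same total, 0 photoreceptor markers passed at p17, while 3 Müller glia markers rose and 3 fell. With quantile normalization, 3 Müller glia markers rose and 2 fell at p17. The 5 blood markers had no call at p14 by limma, edgeR or DESeq2 (0 at an unadjusted p under 0.05 in limma), and all rose at p17, with sums of 195 to 1191 normalized reads in nOIR p17 and 1227 to 16979.6 in OIR p17 mice. Pigment epithelium and melanocyte markers had no call among 9 genes at either age by these tools, with 1 at an unadjusted p under 0.05 in limma at p14 and 0 at p17. Lens markers, measured for 8 of 9 genes, and markers of cornea, ciliary body and iris each had 1 call at p17, Cryab with 0.86 and Krt18 with 0.67. With edgeR, 2 markers of cornea, ciliary body and iris rose at p17, and with DESeq2 1 rose at p14. With DESeq2, 1 astrocyte marker fell at p14. Lens sums ranged from 1344 to 20078 normalized reads in nOIR p14 and from 1674 to 34105 in OIR p17 mice.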

How the data were processed

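Total RNA of whole mouse retinas was amplified with the SMARTer v4 kit and sequenced. The authors mapped reads with RNA STAR to Gencode M28, counted them with featureCounts and divided the counts by a DESeq2 size factor per mouse. The deposited signal is thus normalized reads. The table also holds the authors' group means, log2 fold changes and adjusted p-values, which were not used here. Each value was a whole multiple of 1 read of its mouse (100% of values, tolerance 0.001), so counts were recovered. Values were taken as log2(normalized reads + 1). The 27137 genes averaging 1 or more normalized read over 26 mice entered limma 3.58.1 (R 4.3.3; lmFit, then eBayes with a trend), in a single fit of all 4 groups with Benjamini-Hochberg adjustment. Genes were called at an adjusted p under 0.05, and all 5 members entered. Limma was tested on simulated data. Exact permutation tests were two-sided (scipy 1.17.1). The members and all gene lists were chosen with earlier results of these data known, so no list was tested as a set. Lists share some genes, so their counts are not independent. Besides Acta2, Tagln, Cnn1 and Pdgfra, Amotl2 and Lats2 are both Hippo components and YAP and TAZ targets. Tgfb2 is in the YAP and TAZ target and TGF-beta lists, and Itgam in the CCN receptor and microglia lists. Exon lengths are the union of exons in GENCODE M21 and promoters are from RefSeq (GRCm38.p6), a different build from that of the counts.

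No pair of mice of a group was a copy, since chi-square per degree of freedom between recovered reads was 9.39 or more. Named genes are the members and Ccn6. Added are the 5 genes most like each member with a mean of 10 or more, and from each list up to 4 genes with a mean of 10 or more normalized reads, an adjusted p under 0.05 at p14 or p17 and the largest absolute log2 fold change at p17, plus Yap1, Wwtr1, Ankrd1 and Amotl2. Gm15270, Nt5e, Nuak2, Rgs5, Kcnj8, Abcc9 and Kdr were named after their values were seen, and marker lists are given mainly as counts. Some genes that this rule selects are not reported here. Alternatives were a pseudocount of 0.1, no filter or a mean of at least 10, inclusion of S4, the compared groups only, a replicate block, equal totals, quantile normalization, edgeR 4.0.16 and DESeq2 1.42.0 on recovered reads, an adjusted p under 0.01, the lens markers as covariate, and omission of each mouse. At p14 and p17, edgeR called 1562 and 3240 genes between OIR and control mice, DESeq2 2086 and 3770, and limma 1652 and 3395.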

Additional observations from a re-analysis of the deposited data

Results flagged for a closer look

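Among OIR p14 mice, S2 stood far above the other 5 in Ccn1, at 668 normalized reads, and in Ccn5, at 8.59 normalized reads. A gap large enough to be flagged is expected by chance in about 1 of 20 groups, and 20 groups were examined. For Ccn5, with 4 of the 6 mice at 0 reads, this rate need not apply. The Ccn2 value of this mouse was 763 normalized reads, inside the range of its group. Its summed endothelial markers, 8874 normalized reads, and its summed fibroblast markers, 1236, were the lowest of the 6 mice.

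The OIR effect differed between the ages for Ccn1 (1.33 on the log2 scale), Ccn2 (1.03) and Ccn3 (3.19), when limma tested the difference directly (adjusted p = 0.0384, 0.00129 and 0.0443). The call for Ccn2 held without any single mouse and with the replicate block, whereas that for Ccn1 was lost in 15 and that for Ccn3 in 19 of 26 omissions of a mouse, and both were lost with the block (adjusted p = 0.0767 and 0.110). In Ccn3 this difference included the fall in controls from p14 to p17, where the 6 older mice had 0 reads.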

How the results depend on the processing

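The rises of Ccn1 and Ccn2 in OIR at both ages kept direction and call without any single mouse and under each alternative with values. The same held for the difference in Ccn3 between OIR and control mice at p17, where the controls had 0 reads. Over the alternatives, the log2 fold change at p17 ranged from 2.33 to 2.46 for Ccn1, from 1.68 to 1.84 for Ccn2 and from 2.08 to 5.59 for Ccn3, where a pseudocount of 0.1 gave 5.26. The number of members whose OIR effect differed between the ages was 3, and it was 1 with all genes above 0, with the replicate block or at an adjusted p under 0.01, and 1 to 3 when single mice were left out. With the replicate block, Ccn1 had a difference of 1.24 (adjusted p = 0.0767) and Ccn3 of 3.05 (adjusted p = 0.110), while the block changed no other call. Mouse numbers share only a number, since same-numbered mice correlated with r from -0.11 to 0.16. With S4 included, the Ccn3 difference was 2.98 (adjusted p = 0.0619). In controls, 2 members passed between the ages, against 1 with a mean of at least 10, where 3 members were tested, 1 with DESeq2, where Ccn3 had no adjusted p, 0 at an adjusted p under 0.01, and 0 to 2 without single mice. From OIR p14 to OIR p17, the uncalled Ccn3 value of 0.15 turned to -0.079 with edgeR, -0.077 with DESeq2 and -0.27 with the lens covariate, and ranged from -0.30 to 0.49 without single mice. The cause of these shifts was not tested, apart from the lower number of genes or the stricter threshold. Depth limits Ccn3 and Ccn5, which had at most 16 reads in any of the 26 mice.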
